A study of Mus musculus with 9 samples.

Results

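Accessible chromatin was followed in the oestrogen receptor positive (ER+) luminal cells of the mouse mammary gland through puberty, adulthood and mid pregnancy. The ER+ libraries were chosen by their labels and make up 3 of the 9 ATAC-seq libraries, 1 for each stage. The other 6 libraries are the luminal cells without the receptor (ER- luminal) and the basal cells at the same stages. Cells were isolated by FACS, the same number for each library, from glands of the genotype ERrtTA/TetOCre/rosaYFP, which every group shares, the basal and ER- cells included. Ages, the number of mice behind a library, the use of the YFP reporter in the sort and any doxycycline treatment are not given in the sources used here. With 1 library a stage there is no replicate and no test, so each difference below compares 2 libraries and counts describe how many regions passed a fixed fold.

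The ER+ luminal cells are the hormone-sensing cells of the ducts. They respond to oestrogen and progesterone and pass the signal to neighbouring cells through secreted factors such as amphiregulin and RANKL. ER- luminal cells are the source of the milk-secreting alveoli that expand in pregnancy, and basal cells form the contractile outer layer. In ATAC-seq the Tn5 transposase cuts open DNA, so a high value marks a region that was accessible in the sorted cells. The deposited table numbers its 124860 regions and pairs them with neither genes nor coordinates, so the cell type labels could not be checked against marker genes and regions are given by number.

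Depth differed between the ER+ libraries. They held 11328189 reads in regions at puberty, 6679907 in adults and 2641254 in pregnancy, so 1 read was worth 0.526, 0.855 and 1.695 units of the deposited signal. A region with no read can have a value of up to 1.58, 2.57 and 5.09 units, the worth of 3 reads. The median region had 29, 21 and 10 reads and median values of 15.2, 18 and 17. The pregnancy values were compressed, with a 10th percentile of 5.09 and a 90th of 83.1, against 1.71 and 125 in adults. The pregnancy ER+ library also stood apart from its own cell type. Across regions, which share libraries and are not replicates, its log2 values had a Pearson r of 0.699 with adult ER+ cells and 0.768 with pregnancy ER- cells, while the ER+ puberty and adult libraries had 0.911. Results on pregnancy rest on this library, and those on puberty against adult do not use it.

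Most ER+ regions kept their level from puberty to adulthood, and many more moved in pregnancy. On the log2(value + 1) scale the median absolute difference was 0.51 from puberty to adult and 0.90 from adult to pregnancy, and 76.9% and 53.3% of regions stayed within 2-fold. A difference of at least 4-fold is called a rise or a fall here. From puberty to adult 3301 regions rose (2.64% of all regions) and 1354 fell (1.08%). From adult to pregnancy 13802 rose (11.1%) and 8343 fell (6.68%). Pregnancy set against puberty directly gave 15395 regions higher (12.3%) and 7887 lower (6.32%). These are bulk values, so accessibility that changed within the cells and a changed mix of sorted cells cannot be told apart. The second step was larger in ER+ cells, where 17.7% of regions passed 4-fold, than in the other cell types. In ER- luminal cells 4356 regions rose (3.49%) and 1923 fell (1.54%), and in basal cells 6456 rose (5.17%) and 3871 fell (3.1%). The first step passed 4-fold at 3.73% of regions in ER+, 3.69% in ER- luminal and 4.1% in basal cells. These shares come from single libraries of unlike depth, and the differences between cell types were not tested. With every library thinned to 2186941 reads, 8741 regions rose and 4964 fell in the first ER+ step, and 17234 and 9198 in the second. In the second step ER- luminal cells then had 9670 rises and 4309 falls, and basal cells 13124 and 3630. At equal depth the second ER+ step was thus still the larger, but by a smaller factor, both against the first step and against the other cell types.

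Sorted by both steps, 99509 regions (79.7%) passed 4-fold in neither. The commonest moving pattern was flat and then a rise in pregnancy, at 12807 regions (10.3%), followed by flat and then a fall at 7889 (6.32%). A rise by adulthood that then held within 4-fold was seen at 2707 regions (2.17%) and a fall that held at 499 (0.4%). Of the former, 1480 (54.7%) were still at least 4-fold above puberty in pregnancy, and of the latter 139 (27.9%) were still as far below. A steady rise over both steps was rare, with 145 regions (0.116%), and a steady fall rarer still, with 5 (0.004%). Transient patterns took 850 regions that were low in adults alone (0.681%) and 449 that were high in adults alone (0.36%). With a pseudocount of 4 this balance turned, to 20 low and 104 high. Both steps use the adult library, so an error in it adds to the transient patterns and takes from the steady ones. A further 5359 regions passed 4-fold in neither step but lay at least 4-fold higher in pregnancy than at puberty, and 2821 lay as far below.

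**Figure D1:**
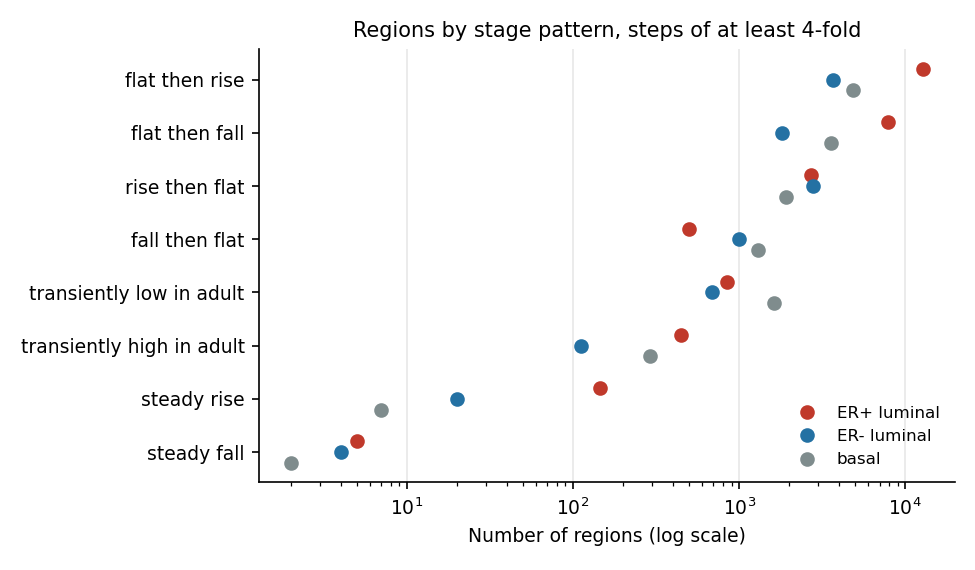
Number of regions (log scale) in each stage pattern, with both steps judged at 4-fold, for ER+ luminal, ER- luminal and basal cells; each point is a count over regions from 3 single libraries. The ER+ points lie furthest right for flat then rise (12807 regions) and flat then fall (7889), and the steady patterns hold 145 and 5.

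The regions that rose late had low earlier values in ER+ cells, as their choice favours. The 12807 regions of the flat then rise pattern had ER+ medians of 2.1, 1.71 and 15.3 from puberty to pregnancy. Over all regions these were 15.2, 18 and 17. The adult ER- luminal and basal medians there were 11.9 and 14.2, against 14.9 and 15 over all regions, and the pregnancy ones 13.7 and 19.8, against 15.2 and 17.6. The regions of the flat then fall pattern had ER+ medians of 37.9, 50.5 and 6.78. The adult ER- luminal and basal medians there were 8.17 and 10.3 and the pregnancy ones 9.1 and 8.8, all below those over all regions. In both patterns the median ER+ value in pregnancy thus lay near those of the other cell types. Late rises are chosen for a low adult ER+ value and late falls for a high one. This favours such moves, so the medians are a description.

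Early rises reached levels like those of late ones, or higher where they were transient. The 2707 regions that rose by adulthood and then held had ER+ medians of 1.58, 13.7 and 11.9. The ER- luminal medians there were 4.30, 5.94 and 7.58, and the basal ones 6.33, 6.31 and 8.8. The 449 regions high in adults alone had ER+ medians of 3.68, 27.4 and 3.39, and 309 of them (68.8%) had at most 3 pregnancy reads. This pattern also asks for an adult value 4-fold above pregnancy, which favours the higher adult level. Of the 3301 regions that rose from puberty to adult, 1950 (59.1%) lay above both other adult libraries, where 39.7% of all regions did. Of the 1354 that fell, 1012 (74.7%) lay below both, against 40.2% of all. In ER- luminal cells these shares were 41% of rises (25.8% of all regions) and 86.4% of falls (28.8%), and in basal cells 41.3% (34.6%) and 81.5% (30.6%). The adult value both chooses and places these regions, which favours such shares in any cell type, so they are a description.

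Read numbers limit what these counts show. A region with no adult read needs only 2 reads in pregnancy to pass 4-fold. Of the 13802 pregnancy gains, 10522 (76.2%) had at most 3 adult reads, 3137 (22.7%) had none, and the median count in pregnancy was 9. The 8343 losses rested on more reads, with a median of 56 in adults and 4 in pregnancy. Still, 3751 of them (45%) had at most 3 pregnancy reads and 1018 (12.2%) had none. Among the 41262 regions whose mean over the 9 libraries was at least 30, falls outnumbered rises, with 2535 against 2164, and among the 13770 with a mean of at least 100 there were 272 falls and 140 rises. The surplus of rises over all regions (62.3% of the 4-fold changes) also turned with a pseudocount of 4, to 42.4%, and with quantile normalization, to 48.4%. From puberty to adult rises made up 70.9% of changes over all regions, 59.6% after quantile normalization and 82.8% with a pseudocount of 4. They made up 42.4% of changes at means of at least 30.

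**Figure D2:**
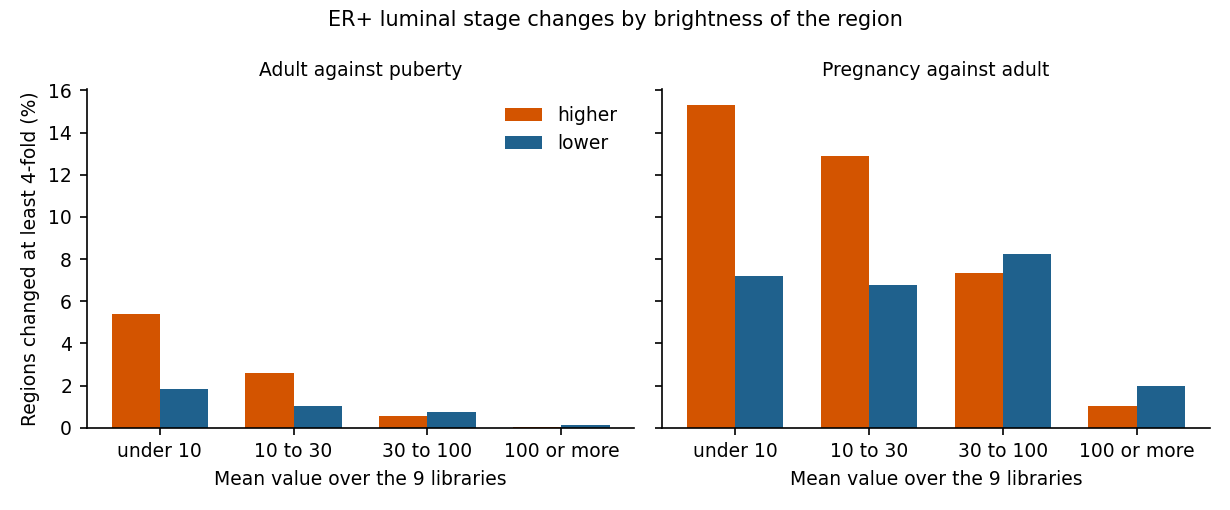
Share of regions (%) at least 4-fold higher or lower in ER+ luminal cells, by the mean value of the region over the 9 libraries, for both steps. Among regions with a mean under 10, 15.3% rose and 7.20% fell in pregnancy; at 30 to 100 the shares were 7.36% and 8.23%, and at 100 or more 1.02% and 1.98%.

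Single regions show the patterns of the first step. Region merged79382 had ER+ values of 1.58 at puberty (3 reads), 80.4 in adults (94 reads) and 1.70 in pregnancy (1 read). It was both the largest rise from puberty to adult and the clearest region high in adults alone. The adult value was 51.0 times that at puberty (exact 95% counting interval 16.9 to 252) and 47.4 times that in pregnancy (8.31 to 1890). The other 6 libraries lay between 1.58 and 10.3, so the adult ER+ library alone was high.

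Region merged51396 had the largest fall from puberty to adult. It had ER+ values of 31.6 at puberty (60 reads), 0 in adults and 0 in pregnancy, and the puberty value was at least 12.3-fold higher than 3 adult reads would give. The ER- luminal and basal libraries had 13.6 and 25.3 at puberty and no read at either later stage. The region was thus open in every puberty library and in none of the other 6.

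Region merged34244 was the clearest region low in adults alone. Its ER+ values were 22.1 at puberty (42 reads), 0 in adults and 44.1 in pregnancy (26 reads), at least 8.61-fold and 17.2-fold above the 3-read limit of the adult library. The ER- luminal values were 73.1, 46.8 and 24.3 and the basal ones 32.5, 41.0 and 33.0, so the adult ER+ library was the only one of the 9 with no read. Of the 850 regions with this pattern, 479 (56.4%) had no adult ER+ read, and 801 (94.2%) had at most 3.

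Steady changes were led by regions that also changed in other cell types. Region merged15139 had ER+ values of 0.526 at puberty (1 read), 5.13 in adults (6 reads) and 522 in pregnancy (308 reads). The pregnancy value was 102 times the adult one (46.2 to 279), and the adult value 9.76 times that at puberty (1.18 to 449). The lower bound of this first step lies under the 4-fold of the pattern. The pregnancy ER- luminal and basal libraries had 344 and 416, and the 4 earlier ones of these cell types had 0 to 5.54. Region merged56097 fell from 52.1 (99 reads) to 12 (14 reads), by 4.35 times (2.47 to 8.24), and then to no read. The second step was at least 2.35-fold against 3 pregnancy reads, a bound under the 4-fold of the pattern. It also had no read in the other 2 pregnancy libraries, after 7.12 to 22.2 in the 4 earlier ones. The 5 regions that fell at both steps had ER+ values of 20.5 to 77.8 at puberty, 3.42 to 18 in adults and 0 to 1.70 in pregnancy. In 2 of the 5 the adult value was below the worth of 3 pregnancy reads, 5.09 units. In the others it was 5.13, 12 and 18, less than 4-fold above that worth. A second fall of 4-fold is thus established for none of the 5. As a group, the 145 regions with a steady rise had ER+ medians of 0, 4.28 and 28.8, and 139 of them (95.9%) had at most 3 reads at puberty. The ER- luminal medians there were 3.58, 7.43 and 18.2, and the basal ones 11.9, 9.47 and 19.8.

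The largest pregnancy changes were nearly all-or-none. Region merged15134 had 0.526 at puberty (1 read), 0.855 in adults (1 read) and 409 in pregnancy (241 reads), a ratio of pregnancy to adult of 478 (84.9 to 18900). It was as high in the pregnancy ER- luminal and basal libraries, with 325 and 385, and between 0 and 2.37 in the 4 earlier ones. The rise was thus shared by the 3 cell types. Region merged45977 went the other way, with 68.4 at puberty (130 reads), 72.7 in adults (85 reads) and no read in pregnancy, at least 14.3-fold below adults. In pregnancy it had 7.58 in ER- luminal (5 reads) and 15.4 in basal cells (7 reads). The adult libraries of these cell types had 2.23 (3 reads) and 3.95 (5 reads), with overlapping counting intervals. Their puberty libraries had 22.2 (31 reads) and 7.91 (10 reads).

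A minority of the ER+ pregnancy changes was shared with the other cell types at this size, each share lying above that cell type's share of all regions. Of the 13802 gains, 671 (4.86%, against 3.49% of all regions) were also gained at least 4-fold by ER- luminal cells, which is 15.4% of their 4356 gains. In basal cells 1149 (8.32%, against 5.17%) were gained, 17.8% of their 6456. Both gained at 130 (0.942%), a count given without the share of all regions that both gained, so it is not compared. At 5999 (43.5%, against 50.7% of all regions) both stayed within 2-fold. Of the 8343 losses, 293 (3.51%, against 1.54%) were lost by ER- luminal and 676 (8.1%, against 3.1%) by basal cells, 15.2% and 17.5% of their own losses, and at 2961 (35.5%) both stayed within 2-fold. Changes in these cell types were commoner in dim regions. At the 90309 regions of the 124860 with a mean of at least 10 lay 1708 of the ER- luminal and 2617 of the basal gains, and 1001 and 1970 of the losses. The shares were not compared at matched brightness. At 5566 gains (40.3%) both other cell types had been at least 4-fold above ER+ cells in adults, and at 3557 losses (42.6%) both had been as far below. Of all regions 6.96% and 11.4% were as far apart in adults, but gains are chosen for a low and losses for a high adult ER+ value, which favours such distances.

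The pregnancy changes were next set against the pregnancy values of the other cell types. If the libraries share a scale, a mix of adult-like ER+ cells with pregnancy basal and ER- luminal cells gives a value between the lowest and the highest of those 3 libraries. A gain above both other pregnancy libraries, or a loss below both, lies outside that span. Of the 13802 gains, 3470 (25.1%) lay above both, 5416 (39.2%) lay between them or level with one, and 4916 (35.6%) lay below both. Of the 8343 losses, 3807 (45.6%) lay below both, 2450 (29.4%) between or level, and 2086 (25.0%) above both. Gains above the range were 2.78% of all regions and losses below it 3.05%. Whether they had changed or not, 33% of all regions lay above both other libraries in pregnancy and 34% below both. The share of gains beyond the range was thus under that of all regions, and the share of losses over it. The pregnancy ER+ value serves both to choose the regions and to place them, so these shares are a description.

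**Figure D3:**
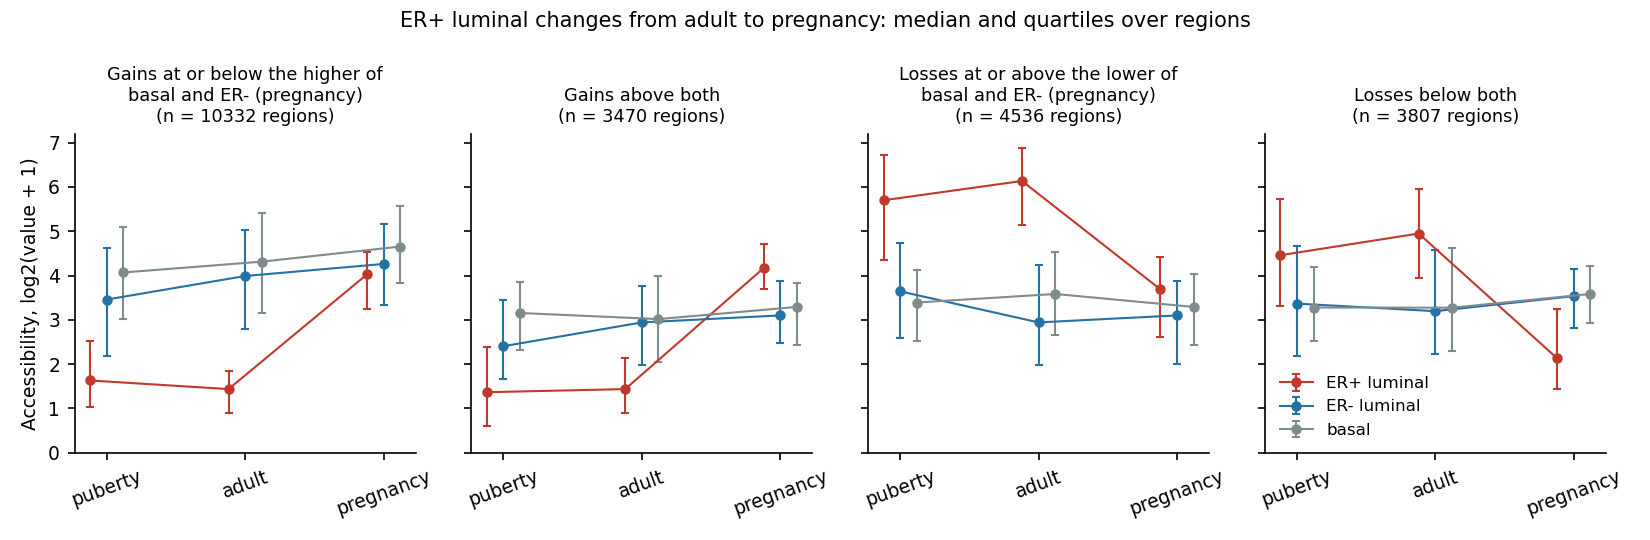
Median and quartiles over regions of log2(value + 1) at each stage (1 library a point) in ER+ luminal, ER- luminal and basal cells, for ER+ pregnancy gains that did or did not pass both other pregnancy libraries, and losses likewise. In the 10332 gains and 4536 losses that did not pass both the ER+ median moves to near the other medians; in the 3470 gains above both it passes them, from 1.71 in adults to 17.0, and in the 3807 losses below both it falls from 29.9 to 3.39.

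The 3470 gains above the range had ER+ medians of 1.58, 1.71 and 17 through the stages. The pregnancy medians of ER- luminal and basal cells there were 7.58 and 8.8, and the median distance to the nearer library was 0.56 on the log2 scale. Both other cell types stayed within 2-fold from adult to pregnancy at 1023 of them (29.5%), against 43.5% of all gains and 50.7% of all regions. The 3807 losses below the range had ER+ medians of 21.0, 29.9 and 3.39, against 10.6 and 11 in the other pregnancy libraries, a median distance of 0.97. Both others stayed within 2-fold at 1494 (39.2%), against 35.5% of all losses. Of these gains 2386 were also at least 4-fold above the puberty ER+ library, which is 17.3% of the 13802 gains. Of all regions 3.46% lay above the range and as far above puberty. Of these losses 2435 were also at least 4-fold below puberty, 29.2% of the 8343 losses. Of all regions 2.87% lay below the range and as far below puberty. The pregnancy ER+ value enters both comparisons, which favours such overlap.

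Stricter readings left fewer such regions. At least 2-fold beyond the range lay 872 gains (6.32%, against 9.01% of all regions) and 1845 losses (22.1%, against 8.08%). At least 4-fold beyond it lay 115 gains (0.833%, against 1.5%) and 676 losses (8.1%, against 1.48%). Beyond the range of all 6 ER- luminal and basal libraries lay 1976 gains (14.3%, against 20.4%) and 2277 losses (27.3%, against 16.5%). Exact 95% counting intervals stood clear of both other pregnancy libraries at 99 gains (0.717%, against 1.72% of all regions) and 77 losses (0.923%, against 1.83%). These 99 gains had ER+ medians of 2.1, 5.99 and 55.9, while the pregnancy medians of ER- luminal and basal cells were 16.7 and 13.2. Of the 99, 93 (93.9%) were also 4-fold above puberty, against 62% of all gains. At 17 of the 99 ER- luminal or basal cells gained 4-fold too. Of all 13802 gains, 671 were gained so by ER- luminal and 1149 by basal cells, 130 of them by both. The 77 losses had ER+ medians of 71.5, 70.1 and 11.9, while ER- luminal and basal cells had 50.1 and 57.2 in pregnancy. At 0 of the 77 did another cell type lose 4-fold, which the choice favours, since both others had to be clear above the ER+ value in pregnancy. Of all 8343 losses, 293 were lost so by ER- luminal and 676 by basal cells, 67 of them by both.

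Beyond-range gains lay mostly in dim regions. Of the 2164 gains at regions with a mean of at least 30, 72 (3.33%) were above both other cell types, against 23.3% of all such regions. Losses kept more of theirs, with 848 of 2535 (33.5%, against 41.7% of all such regions), and 130 of 272 (47.8%, against 45.2%) at means of at least 100. The shares of both directions were thus below those of all regions at means of at least 30.

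The same measure gave larger shares in the other cell types. In ER- luminal cells 1409 gains lay above both other types in pregnancy (32.3% of their gains and 1.13% of all regions), and in basal cells 2804 (43.4% and 2.25%). Of the losses, 1523 in ER- luminal cells lay below both (79.2% of their losses and 1.22% of all regions) and 2895 in basal cells (74.8% and 2.32%). Of all regions, 33% and 34% lay above both and 31.3% and 34.2% below both in ER- luminal and basal cells. For losses the ER+ share was the lowest of the 3 under all 9 alternatives run. For gains it was the lowest under 7 of the 9, the exceptions being the counting intervals (0.528% for ER- luminal and 1.27% for basal gains) and the range of all 6 other libraries (11.5% and 20.9%). With every library thinned to 2186941 reads, the depth of the shallowest, the shares of gains were 25.2% in ER+, 32.3% in ER- luminal and 33.9% in basal cells. The shares of losses were 48.7%, 78% and 66.7% in the same order. The difference between cell types has no replicate and was not tested.

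**Figure D4:**
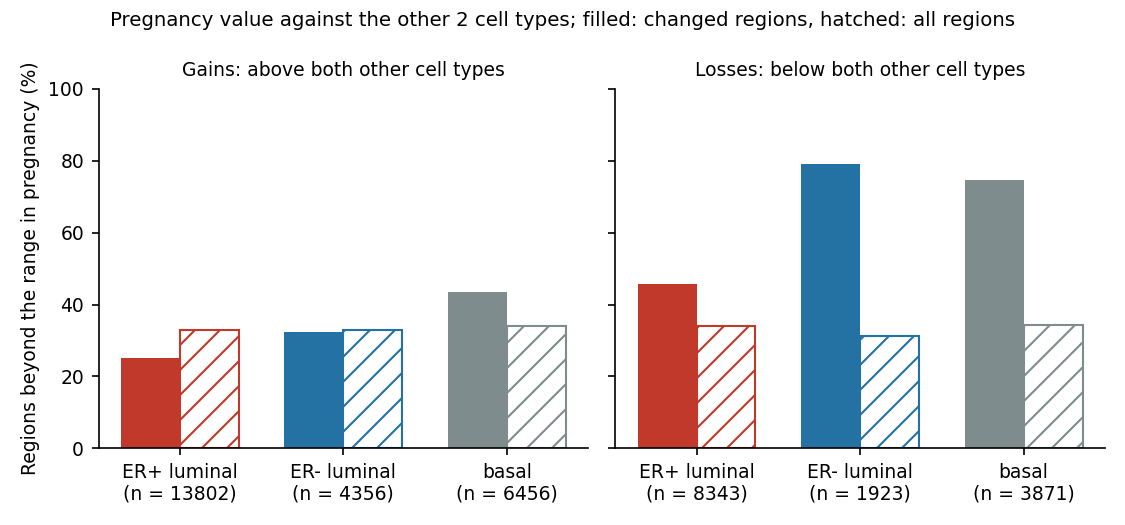
Share of regions (%) whose pregnancy value lay above (left, gains) or below (right, losses) both other cell types, for regions changed at least 4-fold from adult to pregnancy in that cell type (filled, n below each bar) and for all 124860 regions (hatched). The ER+ bars are the lowest filled bars, at 25.1% of gains and 45.6% of losses.

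Region merged95708 lay furthest above the range. It had ER+ values of 0 at puberty, 2.57 in adults (3 reads) and 27.1 in pregnancy (16 reads), a ratio to adults of 10.6 (3.03 to 56.6). The other 2 pregnancy libraries had no read, so the ER+ value was at least 5.96-fold above the 3-read limit of the ER- luminal library and 4.11-fold above that of the basal one, and the 4 earlier ones had 0.717 to 2.37. Region merged20437 followed, with 6.31 (12 reads), 6.84 (8 reads) and 39.0 (23 reads), a ratio to adults of 5.70 (2.46 to 14.7). Its pregnancy value was 12.9 times that of ER- luminal cells (3.18 to 112), and the 6 other libraries had 0.789 to 5.54. Both regions were thus high in the pregnancy ER+ library alone.

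Region merged15887 lay furthest below the range, level with merged2232. It had ER+ values of 8.41 (16 reads) and 18.8 (22 reads) and no read in pregnancy. Against 3 pregnancy reads this was at least 3.70-fold below adults and 1.65-fold below puberty, bounds under the 4-fold of the choice. The other 6 libraries had 13.6 to 29.7, among them the pregnancy ER- luminal and basal libraries with 22.8 and 19.8. Region merged2232 had 11 (21 reads), 29.1 (34 reads) and no read, at least 5.72-fold below adults and 2.17-fold below puberty. The other pregnancy libraries had 31.9 and 19.8. In both regions the pregnancy ER+ library was the only one of the 9 with no read. The nearer library, basal cells in pregnancy, held 9 reads, at least 3.89-fold above 3 pregnancy ER+ reads. A 4-fold distance to puberty or to the range is thus established for neither region.

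**Figure D5:**
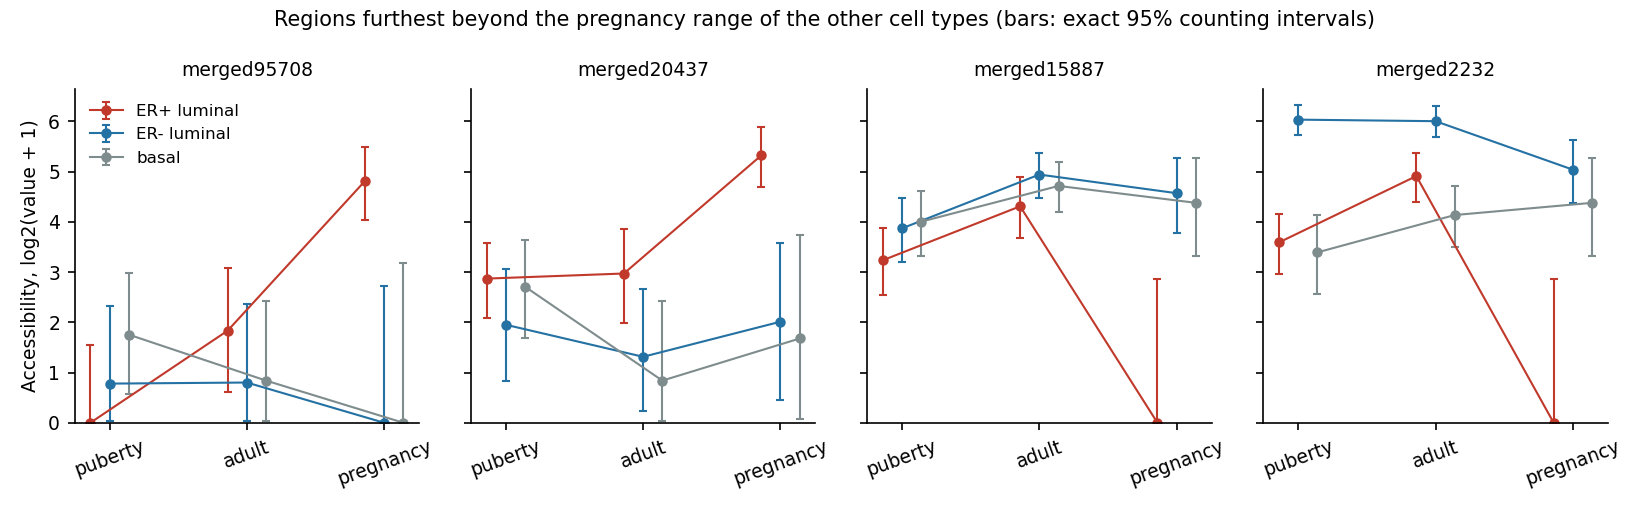
Values on the log2(value + 1) scale by stage for the 2 regions furthest above and the 2 furthest below the pregnancy range of the other cell types; points are single libraries and bars exact 95% counting intervals. The pregnancy ER+ points stand at 27.1 and 39.0 units in the first pair and at 0 in the second.

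Regions that had set ER+ cells apart at both earlier stages were followed into pregnancy. At 5859 regions ER+ cells were at least 4-fold above both other cell types at puberty and in adults, which is 66.8% of the 8774 such regions at puberty and 41.2% of the 14221 in adults. Their ER+ medians were 65.7, 64.1 and 22.0 through the stages, while ER- luminal and basal cells in pregnancy had 9.1 and 8.8. In pregnancy 4674 (79.8%, against 33% of all regions) still lay above both other cell types, but 565 (9.64%, against 1.5%) by 4-fold. Below both lay 381 (6.5%, against 34%). A fall of at least 4-fold was seen at 1707 (29.1%, against 6.68% of all regions) and a rise at 0 (against 11.1%). At 3177 regions ER+ cells were at least 4-fold below both others at both earlier stages. Their ER+ medians were 2.63, 2.57 and 17.0, against 30.3 and 46.2 in ER- luminal and basal cells in pregnancy. Of these 2462 (77.5%, against 34% of all regions) still lay below both, 169 (5.32%, against 1.48%) by 4-fold. A 4-fold rise was seen at 2034 (64%, against 11.1% of all regions). The order of the cell types was thus kept at most of these regions, at a smaller distance. Both sets were chosen on their earlier values, which favours falls in the first set and rises in the second. The part of that choice in the smaller distance was not tested.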

How the data were processed

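ATAC-seq of sorted mouse mammary cells was analysed from 1 deposited table of 124860 regions and 9 libraries, 3 of them ER+ luminal. The labels name total RNA as the molecule, but their protocol tags nuclei with Tn5, and the values were treated as ATAC-seq. MACS2 2.1.0.20151222, Picard, Bowtie2 2.2.6, SAMtools and build GRCm38 (mm10) are named by the submitters' processing notes. The sources used here do not say how reads were shifted for Tn5, peaks merged or libraries scaled. Values deposited by the authors are a normalised signal. In every library 100% of values were a whole number of steps within 0.02, a step being read as 1 read, and the median ratio to the geometric mean was 1.0188 in each library.

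Values were compared as log2(value + 1), which understates changes of low regions, with 4-fold as the threshold and no filter. No count test was run on the recovered reads, since a stage difference within 1 cell type has 1 library a side. Ratios carry exact 95% counting intervals (conditional binomial), and folds against no read use 3 reads of that library. Neither covers more than counting error, as PCR copies of 1 molecule count separately. Named regions have a higher value of at least 17.9, the median of region means, and are the largest in each direction for each step and pattern, and the 2 furthest beyond the pregnancy range on each side among changes also 4-fold against puberty. Alternatives were pseudocounts of 0.25 and 4, a mean of at least 10, thinning to 2186941 reads, quantile normalization, 8-fold, and 3 other range rules. A mean of at least 30 and the brightness classes were chosen after the data had been seen. The regions, sets and rules were chosen with earlier results of these data known. The counting was tested on simulated data with changes planted, and false calls counted, at bright regions only, so it does not cover calls at dim regions. Python 3.11.15, numpy 2.4.6, pandas 2.3.3 and scipy 1.17.1 were used. With neither names nor coordinates in the table, no gene list, motif or sequence was used.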

Additional observations from a re-analysis of the deposited data

Results flagged for a closer look

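In 2 of the named regions ER+ luminal cells and another cell type moved in opposite directions over the same step by at least 2-fold each. The differences were not tested, since each side has 1 library a stage. Region merged45977 fell from adult to pregnancy by 6.2 on the log2(value + 1) scale in ER+ cells, while it was 1.41 higher in ER- luminal and 1.73 higher in basal cells, differences of -7.61 and -7.93. The ER- luminal values rested on 3 and 5 reads and the basal ones on 5 and 7, and their counting intervals overlapped. Region merged15139 was 2.01 higher in adult than in pubertal ER+ cells and had a log2 difference of -2.71 in basal cells, 4.72 apart. The adult ER+ value of merged15139 rested on 6 reads and the basal values on 7 and 0 reads.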

How the results depend on the processing

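Counts past a fold moved with the low values. Main counts were 3301 rises and 1354 falls from puberty to adult, 13802 rises and 8343 falls in pregnancy, 145 steady rises, 5 steady falls, 449 regions high and 850 low in adults alone, 3470 gains above and 3807 losses below the range. In that order, counts that moved by over 1.5 times were as follows. With a pseudocount of 0.25 they were 7070 and 3765 in the first step, 1456 and 43 steady, and 796 and 2969 transient. With a pseudocount of 4 they were 622, 129, 3535, 4802, 1, 0, 104, 20, 1085 and 2011. At a mean of at least 10 they were 1438, 719 and 8515, then 2 steady falls, 164 and 531 transient, and 1184 and 2334 beyond the range. At equal depth they were 8741 and 4964, 290 and 9, and 1038 and 3302. Quantile normalization gave 1359 rises in the first step and 9129 in the second, 76 and 3 steady, and 246 and 462 transient. At 8-fold they were 346, 129, 3552, 1756, 1, 0, 23, 56, 1043 and 1142. Other range rules gave 872 gains and 1845 losses at 2-fold beyond, 99 and 77 with counting intervals apart, and 1976 and 2277 against all 6 other libraries. A mean of at least 30, chosen after seeing the data, gave 2164 gains, 2535 losses, 72 and 848. The counts not given stayed within 1.5 times. The share of the transient regions that was low in adults, 65.4%, became 16.1% with a pseudocount of 4 and 76.4% at a mean of at least 10. No named region reversed. No paired analysis was possible because each group has 1 library. Depth limits all 3 pregnancy libraries, with a median of 8 to 10 reads a region.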

Other observations

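Some regions set ER+ cells apart in pregnancy that had done so at neither earlier stage. ER+ cells were at least 4-fold above both other cell types in pregnancy at 1868 regions, of which 659 (35.3%) had not been so at puberty or in adults. Their ER+ medians were 8.41, 11.1 and 17.0 through the stages. ER- luminal cells had 3.58, 3.71 and 1.52 there and basal cells 4.75, 3.95 and 2.2. The pregnancy medians of 1.52 and 2.2 lay under the worth of 3 reads in those libraries, 4.55 and 6.6 units. From adult ER+ cells 110 (16.7%, against 11.1% of all regions) had risen 4-fold. At 1853 regions ER+ cells were as far below both in pregnancy, 1399 (75.5%) of them at neither earlier stage. Their ER+ medians were 4.73, 5.13 and 0, and 3 ER+ reads in pregnancy are worth 5.09 units. In pregnancy ER- luminal and basal cells had 10.6 and 11. A 4-fold fall was seen at 659 (47.1%, against 6.68% of all regions). Both sets were chosen on their pregnancy values, which favours such changes, so these shares are a description.

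Changes were followed by the same change at the next running number more than over all regions, though in a minority of cases. Of the 13802 ER+ pregnancy gains, 2555 (18.5%) were followed in the numbering by another gain, where 11.1% of all regions gained. For losses the share was 11.3% against 6.68%, for rises from puberty to adult 8.09% against 2.64%, and for falls 2.29% against 1.08%. Whether the numbering follows the genome was not tested.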
